A study of Mus musculus with 9 samples.

Results

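Connexins and pannexins are the proteins that form large-pore channels in the membranes of animal cells, and 8 of their genes are described here in differentiating mouse muscle cells. They are the connexin genes *Gja5*, *Gja1*, *Gja3*, *Gja4*, *Gjc1* and *Gjb2* and the pannexin genes *Panx1* and *Panx3*, among 24704 genes with a single symbol on the arrays. Each had 1 probe set, found by its gene symbol. These genes were picked from the family with values of these same arrays in view, so their differences between the groups are given as a description, with intervals and without p-values.

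Primary myoblasts came from satellite cells, which are muscle stem cells, of C57BL/6 mice (the N substrain by the study's methods), and all cultures differentiated for 24 h before treatment. The TGFβ1 group then received 20 ng/ml of TGFB1 for 24 h. The ITD-1 group received ITD-1, a small molecule that inhibits TGFβ signalling by depleting its type II receptor, for 24 h, at 5 mM by the sample labels and at 5 µM by the study's methods. No treatment is given for the control group, whose medium and vehicle are not stated in the labels. Each group had 3 arrays. The study's figure legend gives 3 biologically independent experiments for its transcriptome data. The labels do not say whether the arrays of a group came from separate animals, so errors measure the spread between these arrays only. In such cultures, a larger share of cells of a type and more RNA per cell cannot be told apart.

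A connexin channel in the membrane of a cell docks with one in its neighbour, and the pair forms a gap junction through which ions and small metabolites pass. Undocked connexin channels and pannexin channels open to the outside instead and are known for releasing ATP. Myoblasts are coupled by gap junctions before they fuse, mainly through the product of *Gja1*, and mature muscle fibres lose them. *Gja5* is best known from the conduction system and atria of the heart and from arterial endothelium.

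The arrays are RMA-normalized, and a level is given as log2 signal, so that a difference of 1 is 2-fold. Levels of different probe sets are not compared with each other. A probe set is instead placed above or below the median of its own array, which was 4.09 to 4.19 over the 9 arrays, since the values carry no detection call. Arrays correlated at 0.992 to 0.996 within groups and 0.983 to 0.995 between groups (Pearson's r across genes, which are not independent). The myogenic label was borne out by its markers, with 8 of 8 above the array median on all 9 arrays. Of the TGFβ target genes *Smad7*, *Klf10* and *Skil*, 3 of 3 rose with TGFβ1, by 0.92, 0.96 and 0.96 (log2; limma adjusted p = 0.000388, 0.000319 and 0.00142), and none passed the test with ITD-1.

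Of the 8 genes, *Gja5*, *Gja1*, *Gja3* and *Panx1* lay above the array median on all 9 arrays, and *Gja4*, *Gjc1*, *Gjb2* and *Panx3* below it on all 9. With TGFβ1, *Gja5* was 6.66-fold and *Gja1* 1.85-fold higher than in controls, and the other 6 genes differed from controls by 0.14 or less (log2). With ITD-1, *Gja5*, *Gja1* and *Panx1* were lower than in controls, by 1.55-fold, 1.34-fold and 1.31-fold. None of the 8 passed limma's test for ITD-1 against control, beside 0.636% of all genes called.

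Sequences before the start sites of *Gja5*, *Gja1* and *Panx1*, the 3 genes with the clearest differences, are shown. They are the 250 bases upstream of each RefSeq start in build GRCm38.p6, 5′ to 3′ on the gene's strand. *Gja5* lies at chr3:97032152-97032401 (plus strand), *Gja1* at chr10:56377050-56377299 (plus strand) and *Panx1* at chr9:15045479-15045728 (minus strand). Capitals mark matches to the motifs described after the sequences.
Gja5: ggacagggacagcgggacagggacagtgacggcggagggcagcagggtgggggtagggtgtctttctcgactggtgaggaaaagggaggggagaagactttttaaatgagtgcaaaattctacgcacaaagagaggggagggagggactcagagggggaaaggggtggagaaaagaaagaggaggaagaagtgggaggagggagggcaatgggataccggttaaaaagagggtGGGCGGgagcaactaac
Gja1: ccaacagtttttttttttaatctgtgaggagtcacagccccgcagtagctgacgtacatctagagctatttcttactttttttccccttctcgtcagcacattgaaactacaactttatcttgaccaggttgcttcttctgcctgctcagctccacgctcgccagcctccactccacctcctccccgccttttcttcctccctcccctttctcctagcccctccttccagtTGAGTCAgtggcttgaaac
Panx1: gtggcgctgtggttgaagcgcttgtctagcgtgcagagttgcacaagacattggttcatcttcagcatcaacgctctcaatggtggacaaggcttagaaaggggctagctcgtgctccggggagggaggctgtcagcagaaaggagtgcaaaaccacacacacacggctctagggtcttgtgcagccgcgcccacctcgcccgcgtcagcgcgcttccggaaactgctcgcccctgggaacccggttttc

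A set of 6 short motifs was searched on both strands of the windows of 300 bases, from 250 before to 50 after the start. The core of a SMAD site was searched for as CAGAC. For AP-1 the letters were TGANTCA. An E-box was searched for as CAGCTG and a GC box as GGGCGG. The remaining searches were for the TATA box with the letters TATAAA, and for a T-box site by its letters TCACACC. *Gja1* held 1 match, to TGANTCA, which starts 19 bases before the gene's start and occurs in 7.81% of all 32841 windows. *Gja5* held 1 match, to GGGCGG, which starts 17 bases before the gene's start and occurs in 35.7% of windows. *Panx1* held none of them. CAGAC, present in 49.6% of windows, was found in the windows of *Gja3* and *Gja4*. GGGCGG was also found in the windows of *Gja3*, *Gja4* and *Gjb2*. A match is a run of letters and not a measured binding site, and 6 of the 8 genes had a window. The part of any motif in the differences between groups was not tested. The GC content of the windows was 55.7% for *Gja5*, 47.7% for *Gja1* and 61.3% for *Panx1*, against a median of 52.7% over all windows.

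*Gja5*, which encodes connexin-40, had the widest separation between groups. Its log2 signal was 8.93, 9.16 and 9.25 on the TGFβ1 arrays, 5.94, 5.61 and 5.68 on the ITD-1 arrays, and 6.47, 6.23 and 6.44 on the control arrays. Every TGFβ1 array lay above every control array, and every ITD-1 array below every control array, so the 3 groups did not overlap. The means were 9.11 ± 0.17 with TGFβ1, 5.74 ± 0.17 with ITD-1 and 6.38 ± 0.13 in controls (SD, n = 3 each). The difference of TGFβ1 from control was 2.73 (log2, SE 0.12, 95% interval 2.47 to 3.00), or 6.66-fold with an interval of 5.55-fold to 7.98-fold. It was the third largest rise among the 24704 genes. The difference of ITD-1 from control was -0.63 (SE 0.12, 95% interval -0.90 to -0.37), place 110 among the falls. Between TGFβ1 and ITD-1 the difference was 3.37 (95% interval 3.11 to 3.63), or 10.3-fold. These 3 differences are not independent of each other, since each pair of them shares a group of arrays.

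**Figure D1:**
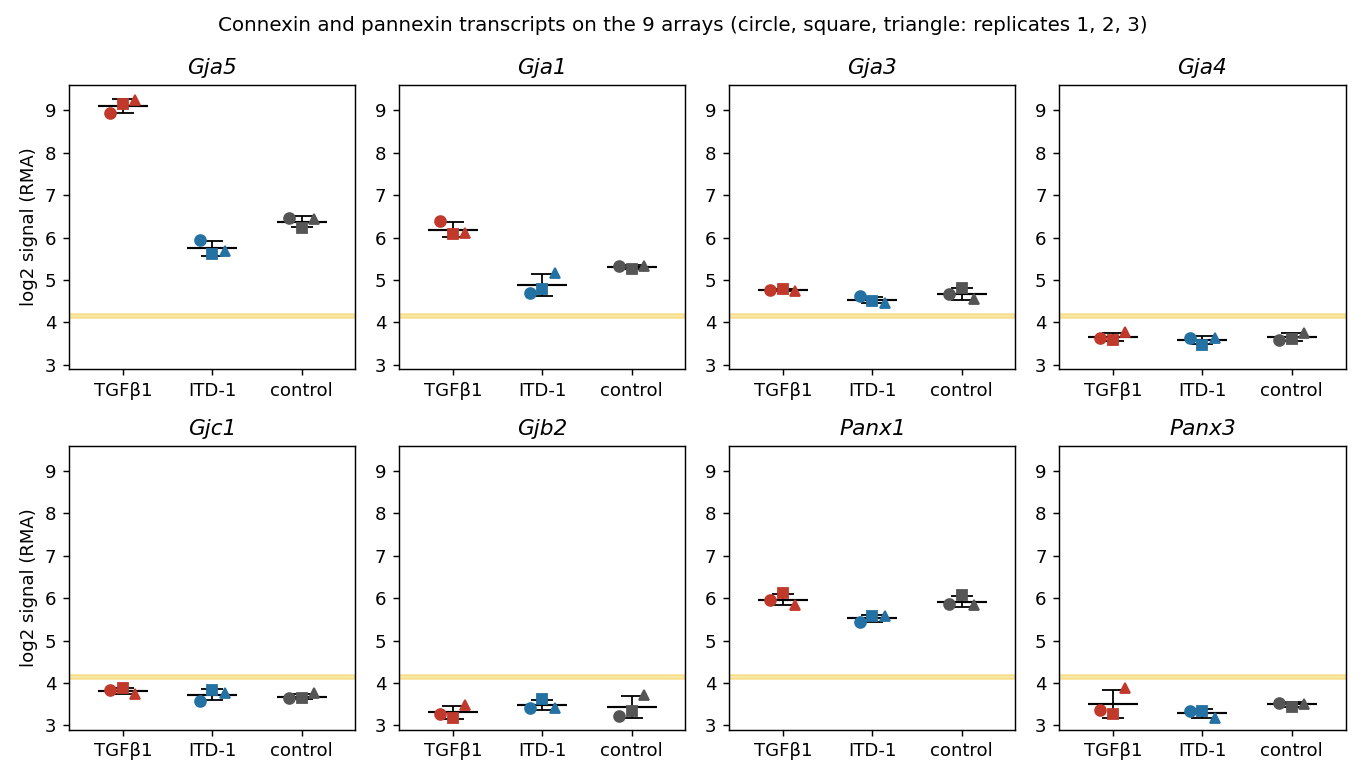
Log2 signal (vertical axis, RMA) of the 8 connexin and pannexin genes on each array, with TGFβ1, ITD-1 and control from left to right; symbols are single arrays, horizontal lines with bars are means ± SD (n = 3), and the shaded band is the range of the array medians, 4.09 to 4.19. *Gja5* sits at 8.93 to 9.25 with TGFβ1, 5.61 to 5.94 with ITD-1 and 6.23 to 6.47 in controls, and *Gja4*, *Gjc1*, *Gjb2* and *Panx3* stay below the band on all 9 arrays.

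*Gja1*, which encodes connexin-43, the most widespread connexin and the main one of myoblasts, differed in the same order with smaller steps. Its log2 signal was 6.39, 6.07 and 6.10 on the TGFβ1 arrays, 4.68, 4.79 and 5.17 on the ITD-1 arrays, and 5.32, 5.26 and 5.33 on the control arrays. The groups did not overlap here either, and the ITD-1 arrays spread most, over 0.49, against 0.32 for TGFβ1 and 0.07 for control. The means were 6.19 ± 0.18 with TGFβ1, 4.88 ± 0.26 with ITD-1 and 5.30 ± 0.04 in controls (SD, n = 3 each). TGFβ1 differed from control by 0.89 (log2, SE 0.13, 95% interval 0.59 to 1.18), or 1.85-fold. ITD-1 differed from control by -0.42 (SE 0.13, 95% interval -0.71 to -0.13). TGFβ1 and ITD-1 differed by 1.31 (95% interval 1.01 to 1.60), or 2.47-fold.

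*Panx1* encodes the pannexin found in most tissues, a channel for ATP release that skeletal muscle also carries. Its log2 signal was 5.96, 6.12 and 5.84 on the TGFβ1 arrays, 5.44, 5.58 and 5.59 on the ITD-1 arrays, and 5.85, 6.07 and 5.84 on the control arrays. The TGFβ1 and control arrays overlapped, and all 3 ITD-1 arrays lay below both. TGFβ1 differed from control by 0.05 (95% interval -0.17 to 0.26), and ITD-1 from control by -0.39 (SE 0.10, 95% interval -0.60 to -0.18). TGFβ1 and ITD-1 differed by 0.44 (95% interval 0.22 to 0.65), or 1.36-fold.

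*Gja3* encodes a connexin best known from the fibre cells of the lens. Its log2 signal was 4.76, 4.79 and 4.74 on the TGFβ1 arrays, 4.61, 4.50 and 4.46 on the ITD-1 arrays, and 4.66, 4.81 and 4.54 on the control arrays. Control arrays overlapped with those of both treatments, and the TGFβ1 arrays all lay above the ITD-1 arrays, by 0.24 between the means (95% interval 0.06 to 0.42). The difference from control was 0.09 with TGFβ1 (95% interval -0.08 to 0.27) and -0.14 with ITD-1 (95% interval -0.32 to 0.04).

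The 4 genes below the array median differed little. Without detection calls, these values do not tell whether the genes were expressed, so small differences do not show a lack of response. *Gja4*, a connexin of arterial endothelium, was at 3.58 to 3.77 with TGFβ1, 3.46 to 3.63 with ITD-1 and 3.58 to 3.75 in controls. *Gjc1*, known from the early heart and smooth muscle, was at 3.74 to 3.88 with TGFβ1, 3.58 to 3.83 with ITD-1 and 3.64 to 3.76 in controls. *Gjb2*, a connexin of the inner ear and of epithelia, was at 3.18 to 3.48 with TGFβ1, 3.41 to 3.62 with ITD-1 and 3.22 to 3.73 in controls. For these 3 genes the arrays of all groups overlapped, and the differences from control were 0.01, 0.14 and -0.12 with TGFβ1 and -0.07, 0.04 and 0.05 with ITD-1, in the order named. For TGFβ1 against control the 95% intervals were -0.17 to 0.20 for *Gja4*, -0.05 to 0.32 for *Gjc1* and -0.43 to 0.18 for *Gjb2*.

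*Panx3*, a pannexin of bone and cartilage, was also below the array median, at 3.36, 3.28 and 3.89 on the TGFβ1 arrays, 3.35, 3.34 and 3.16 on the ITD-1 arrays, and 3.54, 3.44 and 3.50 on the control arrays. The ITD-1 arrays lay below the control arrays, with a difference of -0.21 whose 95% interval, -0.53 to 0.11, includes 0. TGFβ1 differed from control by 0.01 (95% interval -0.30 to 0.33). TGFβ1 replicate 3 was the highest of the 9 arrays. The SD of the TGFβ1 group was 0.33, against 0.10 for ITD-1 and 0.05 for control.

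**Figure D2:**
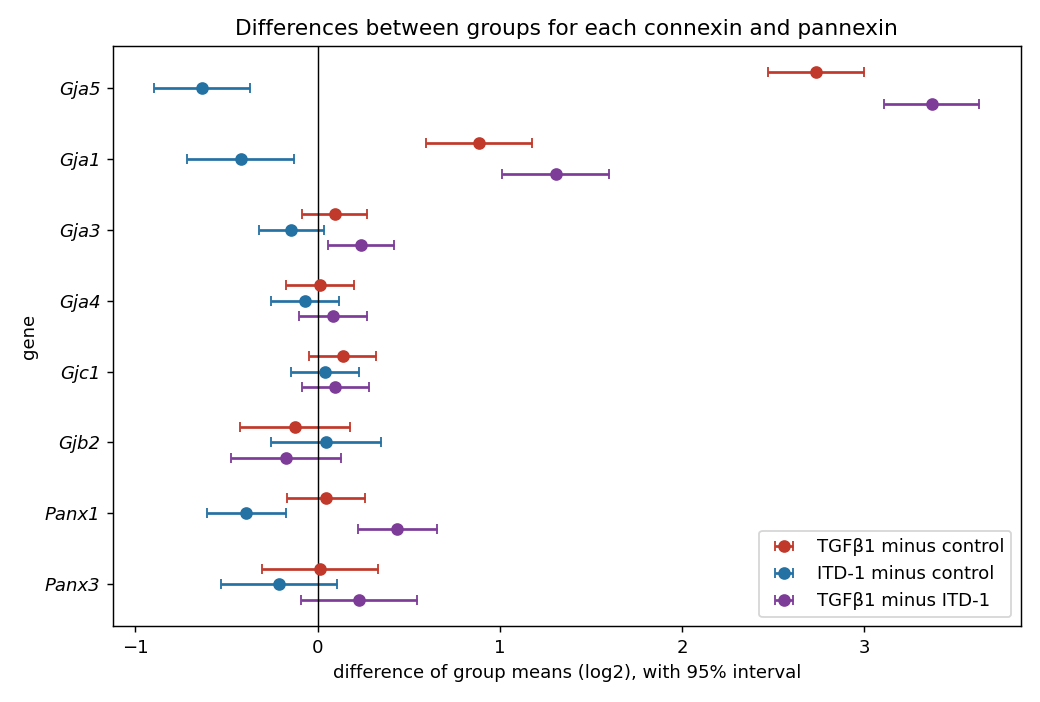
Difference of group means on the log2 scale (horizontal axis) for each connexin and pannexin gene, with 95% intervals from the limma fit of all 9 arrays, for TGFβ1 minus control, ITD-1 minus control and TGFβ1 minus ITD-1. *Gja5* stands at 2.73, -0.63 and 3.37 and *Gja1* at 0.89, -0.42 and 1.31, while the intervals of *Gja4*, *Gjc1* and *Gjb2* include 0 in all 3 comparisons.

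Calls were made by limma, two-sided, where the Benjamini-Hochberg adjusted p over all 24704 genes was under 0.05. For TGFβ1 against control, 6.43% of all genes were called, 3.65% as higher and 2.78% as lower, and among the 8 genes *Gja5* and *Gja1* were called higher and none lower. Arrays of TGFβ1 all lay above control arrays for these same genes, 2 of 8, against 10.4% of all genes. The *Gja1* call was not made without the array of highest median in each group. For ITD-1 against control, 0.636% of all genes were called, 0.575% as lower, and 0 of the 8. *Gja5* was called there under 2 of 18 alternatives, which left the less bright probe sets out of the test or used limma's trend and robust settings, and it also met the methods' criteria of an unadjusted p under 0.05 and at least 1.5-fold. ITD-1 arrays all lay below control arrays for 4 of 8 genes, against 5.92% of all genes. For TGFβ1 against ITD-1, 10.2% of all genes were called, 5.92% as higher, and *Gja5*, *Gja1* and *Panx1* were called higher. For these and *Gja3*, 4 of 8, the TGFβ1 arrays all lay above the ITD-1 arrays, against 11.3% of all genes. The *Panx1* call was lost under 5 of 18 alternatives, among them leaving out TGFβ1 replicate 1, TGFβ1 replicate 2 or ITD-1 replicate 1, where its difference was 0.37 to 0.50 over the fits that left out 1 array. At 1.36-fold *Panx1* did not meet the methods' criteria either. Since the genes were chosen with these differences in view, nothing is read from these counts. Over the 8 genes the median difference was 0.07 for TGFβ1 against control, -0.18 for ITD-1 against control and 0.23 for TGFβ1 against ITD-1, beside -0.01, 0.01 and -0.03 over all genes.

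The other connexin and pannexin genes of the mouse give the rest of the family. The list of 15 was drawn up for the comparison with earlier results of these data known, so nothing is read from its counts of calls. Of the 15, 11 had a probe set with a symbol, 7 of them below the array median on all 9 arrays and 3 above it. With TGFβ1, 1 of the 11 passed the test, beside 6.43% of all genes, and the other 10 differed from control by 0.10 or less (median of the 11 -0.04). The gene that passed was *Gjd4*, which encodes connexin-39, a connexin known in the mouse from developing and regenerating muscle. Its log2 signal was 7.12, 7.28 and 6.95 on the TGFβ1 arrays, 6.21, 6.13 and 6.17 on the ITD-1 arrays, and 6.27, 6.21 and 5.86 on the control arrays. *Gjd4* rose by 1.00 with TGFβ1 (SE 0.12, 95% interval 0.74 to 1.27, limma adjusted p = 0.000714, 0.000209 to 0.0134 over 18 alternatives), and all TGFβ1 arrays lay above all others. With ITD-1 it overlapped with controls, at a difference of 0.05 (95% interval -0.21 to 0.32). With ITD-1, 0 of the 11 passed limma's test, beside 0.636% of all genes. *Panx2*, the remaining pannexin, differed from control by -0.07 with TGFβ1 (95% interval -0.27 to 0.14) and by 0.11 with ITD-1 (95% interval -0.09 to 0.31).

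Of the genes described, *Gja3* and *Gjb2* are neighbours in the genome. In the RefSeq gene order *Gja3*, *Gjb2* and *Gjb6* follow each other on chromosome 14. *Gjb6* differed from control by 0.00 with TGFβ1 and 0.02 with ITD-1, beside 0.09 and -0.14 for *Gja3* and -0.12 and 0.05 for *Gjb2*.

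Gap junctions depend on proteins that anchor, phosphorylate and remove connexins, and 24 of 26 genes on a list of such partners were measured. With TGFβ1, 5 of 24 rose and 1 fell, beside 6.43% of all genes called, and the median difference was 0.03. All 24 were among the brighter probe sets (mean at least the median), while the share is over bright and dim ones. The list was drawn up with earlier results of these data known, so nothing is read from the count. *Jup*, the junction protein plakoglobin, rose by 1.62 (adjusted p = 0.000411). *Dbn1*, an actin-binding protein that binds connexin-43, rose by 0.68 (adjusted p = 0.000195). Of the kinases, *Prkcd* rose by 0.73 (adjusted p = 0.00281) and *Prkce* fell by 0.57 (adjusted p = 0.0064). *Smurf2*, a ubiquitin ligase known for acting on TGFβ receptors, rose by 0.38 (adjusted p = 0.00944, 0.0644 without the arrays of highest median). *Cav1*, the coat protein of caveolae, rose by 0.48 with TGFβ1 (adjusted p = 0.012, 0.00502 to 0.121 over 18 alternatives), a call lost without control replicate 1 and without the arrays of highest median. *Cav1* also fell by 0.59 with ITD-1 (adjusted p = 0.0227, 0.0073 to 0.273 over 18 alternatives), the single partner gene to pass there, beside 0.636% of all genes. That ITD-1 call was lost under 9 of 18 alternatives, among them the replicate block and leaving out any 1 control array, ITD-1 replicate 1 or ITD-1 replicate 2.

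ATP that leaves through these channels acts on purinergic receptors and is broken down outside the cell, and 22 of 26 genes on a list of these steps were measured. With TGFβ1, 4 of 22 rose and 0 fell, beside 3.65% of all genes called higher and 2.78% called lower, with a median difference of 0.02. This list was also drawn up with earlier results of these data known, so nothing is read from the count. Among the receptors, *P2rx4*, an ATP-gated ion channel, rose by 0.53 (adjusted p = 0.00261, 0.0534 without the arrays of highest median), and *P2ry2*, a G protein-coupled receptor, rose by 0.60 (adjusted p = 0.0121, 0.00318 to 0.0652 over 18 alternatives). The *P2ry2* call was lost without control replicate 3 and by analysis of variance. *Nt5e*, the ectoenzyme that makes adenosine from AMP, rose by 0.48 (adjusted p = 0.011), to 3.79 with TGFβ1, against 3.30 in controls, both below the array medians. *Slc29a1*, a nucleoside transporter, rose by 0.28 (adjusted p = 0.0424, 0.0102 to 0.154 over 18 alternatives). The *Slc29a1* call was lost under 9 of them, among them the replicate block and leaving out control replicate 1 or 2, any 1 TGFβ1 array or ITD-1 replicate 1. With ITD-1, 0 of 22 passed limma's test, beside 0.636% of all genes. The largest difference there was that of *P2rx4*, -0.32 (95% interval -0.50 to -0.15, adjusted p = 0.157).

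Other large-pore channels were measured with 10 of 10 genes, and 2 rose with TGFβ1, beside 3.65% of all genes called higher. Nothing is read from this count either, since the list was drawn up with earlier results of these data known. *Lrrc8a*, the subunit that volume-regulated anion channels cannot do without, rose by 0.59 (adjusted p = 0.00713, 0.0862 without the arrays of highest median). *Lrrc8c*, a further subunit, rose by 0.45 (adjusted p = 0.0215, up to 0.184 over the alternatives). The *Lrrc8c* call was not made under 7 of 18 alternatives, among them leaving out control replicate 1 or 3 or TGFβ1 replicate 1 or 3. With ITD-1, 0 of 10 passed limma's test, beside 0.636% of all genes.

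**Figure D3:**
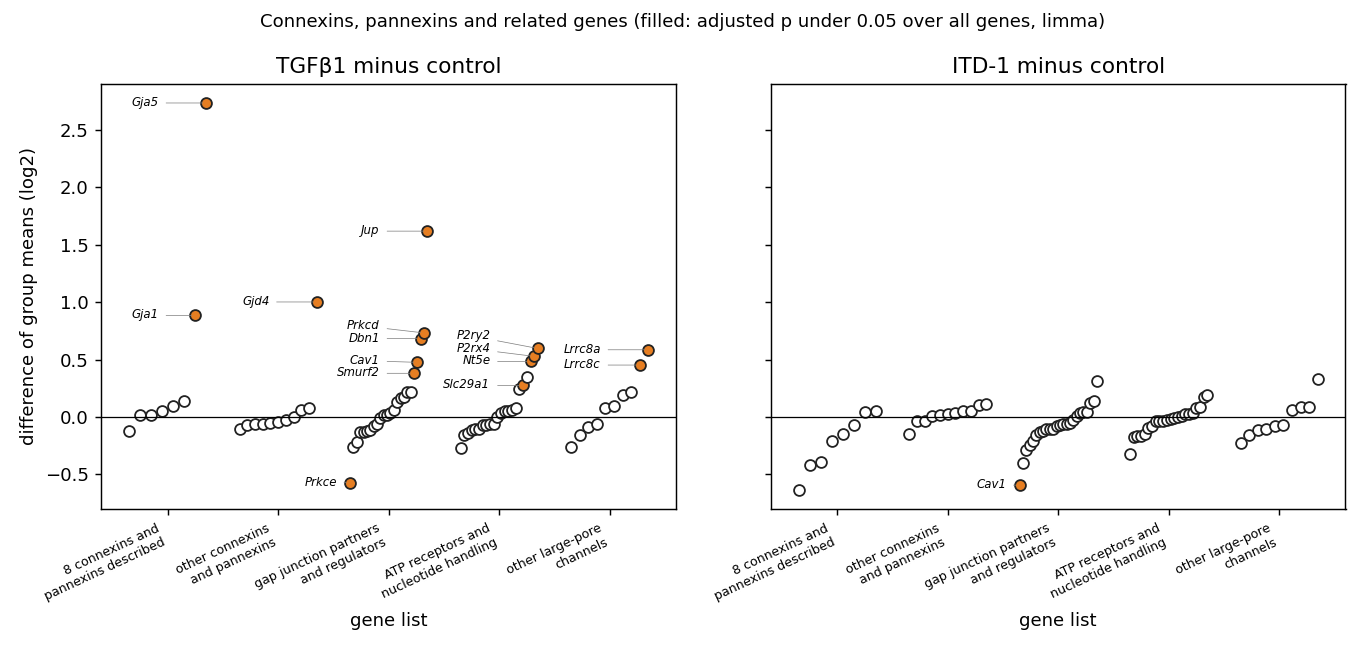
Difference of group means on the log2 scale (vertical axis) for every measured gene of 5 lists (horizontal axis), with TGFβ1 minus control on the left and ITD-1 minus control on the right; each point is 1 gene, and filled and named points had an adjusted p under 0.05 over all 24704 genes. *Gja5* is the highest point at 2.73, followed by *Jup* at 1.62 and *Gjd4* at 1.00, and with ITD-1 only *Cav1* is filled, at -0.59.

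Genes most like *Gja5* over the 9 arrays were found by the root mean square difference of log2 signals after each gene's own mean was subtracted. The closest were *Nptx1*, a secreted neuronal pentraxin, at 0.20, *Bhlhe40*, a transcriptional repressor, at 0.21, and *Lox*, the lysyl oxidase that crosslinks collagen, at 0.23. The median over all genes was 1.48. *Nptx1* differed from control by 2.52 with TGFβ1 and -0.55 with ITD-1, *Bhlhe40* by 2.70 and -0.66, and *Lox* by 2.70 and -0.59, beside 2.73 and -0.63 for *Gja5*. This likeness is a description over 9 arrays in 3 groups.

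**Figure D4:**
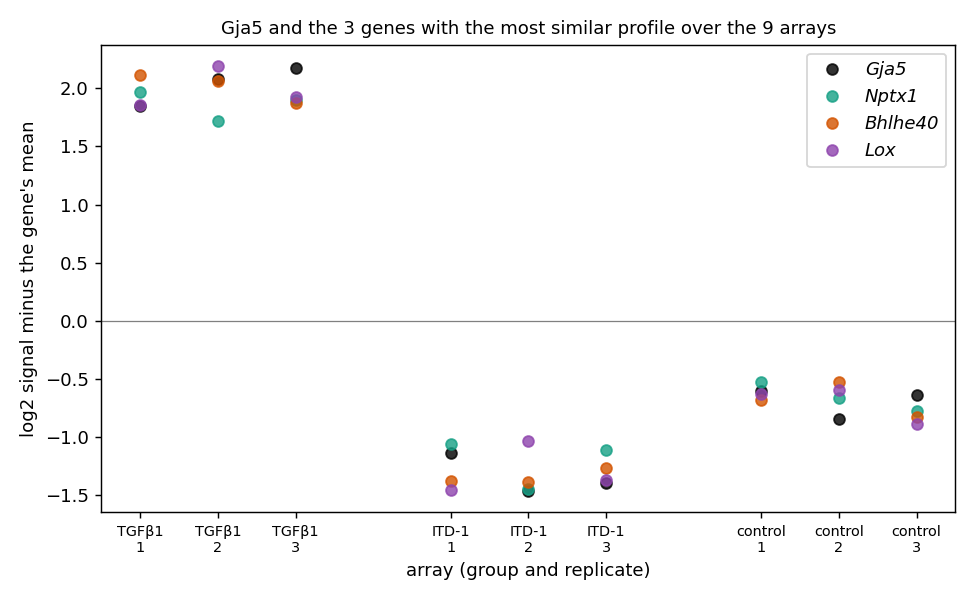
Log2 signal minus the gene's own mean over the 9 arrays (vertical axis) for *Gja5* and the 3 genes with the smallest root mean square difference from it, on each array (horizontal axis: TGFβ1, ITD-1 and control, replicates 1 to 3). All 4 genes sit highest on the TGFβ1 arrays and lowest on the ITD-1 arrays, and they differ from *Gja5* by 0.20 to 0.23 (root mean square).

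Some of these connexins are also genes of other cell types that a primary muscle culture can hold. Of 9 endothelial markers, 6 were below the array median on all arrays and 1 above it on all, and their mean log2 signal was 3.64 to 3.77 on the TGFβ1 arrays, 3.61 to 3.75 on the ITD-1 arrays and 3.64 to 3.76 on the control arrays. In each of the 3 comparisons 0 of the 9 passed limma's test. Of all genes, 6.43% were called for TGFβ1 against control, 0.636% for ITD-1 against control and 10.2% for TGFβ1 against ITD-1. Of 6 bone and cartilage markers measured, 3 were below the median on all 9 arrays and 3 above it on all. Of 5 epithelial markers, 4 were below it on all and 1 above it on all. Of 8 pericyte and smooth muscle markers, 2 were below the median on all arrays and 5 above it on all. Their mean was 5.06 to 5.09 with TGFβ1, 5.06 to 5.23 with ITD-1 and 5.27 to 5.42 in controls, so every array of both treatments lay below every control array. The median difference over the 8 was 0.03 with TGFβ1 and -0.05 with ITD-1. With TGFβ1, 2 of 8 passed the test, all as lower, beside 2.78% of all genes called lower. With ITD-1, 1 of 8 passed, also as lower, beside 0.575% of all genes. The marker lists too were drawn up with earlier results known, so nothing is read from these counts. *Rgs5* fell by 1.28 with TGFβ1 (adjusted p = 0.000179) and by 1.02 with ITD-1 (adjusted p = 0.00643), and *Abcc9* fell by 1.48 with TGFβ1 (adjusted p = 1.2e-05). *Pdgfrb*, a receptor of pericytes, lay above control on all 3 TGFβ1 arrays, at a difference of 0.39 (adjusted p = 0.217). Of 8 myogenic markers, *Ckm*, the creatine kinase of mature muscle, rose by 0.93 with TGFβ1 (adjusted p = 0.00051) and *Myh3*, the embryonic myosin heavy chain, fell by 0.31 (adjusted p = 0.0224). The part of these shifts in the connexin values was not tested.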

How the data were processed

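RNA of 9 cultures, 3 per group, was hybridised to Affymetrix MouseGene ST 2.0 arrays. The log2 values deposited by the authors are RMA-normalized on custom CDF version 22, in a column for each array, without counts or detection calls, so the number of arrays limits the precision. The file names no genome build. The submitters' processing notes also name Partek. The authors' own comparisons were not used.

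Of 25428 probe sets, 24704 carried a symbol of their own and were tested, 723 had none and 1 shared its symbol. Groups were compared with limma 3.58.1 (lmFit, eBayes; R 4.3.3; two-sided) on all 9 arrays, with p-values adjusted over all genes tested, and 95% intervals come from the same fit. The steps were tested on simulated data. The 8 genes and all lists were chosen with earlier results of these data known. Named were all 8 genes and every other connexin, pannexin or list gene that passed against control. *Panx2*, *Gjb6* and *Pdgfrb* were named as well, though none of them passed against control. Also named were the 3 genes most like the member with the largest positive or the largest negative difference with TGFβ1. *Gjb2* had the largest negative difference with TGFβ1 among the 8, -0.12, with a 95% interval that includes 0. The genes most like *Gjb2* were *Skint7*, *A530016L24Rik* and *Prm2* (root mean square difference 0.0391, 0.0499 and 0.0523, median over all genes 0.204). Promoters came from RefSeq.

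Arrays of the same replicate number were checked for pairing by the correlation of their residuals across genes. It was 0.138 to 0.305 between TGFβ1 and control (3 of 3 over 0.1), -0.0707 to 0.146 between ITD-1 and control (1 of 3) and -0.117 to 0.0869 between TGFβ1 and ITD-1 (0 of 3). All values for TGFβ1 and control passed 0.1, but correlations this low do not establish pairing, which the labels do not state. The main fit takes no account of pairing, and the fit with the number as a block was an alternative. Others were centring each array, cyclic loess, only probe sets whose mean reached the median, trend and robust settings, array weights, only the arrays of the 2 groups, an analysis of variance without moderation, the methods' criteria (unadjusted p under 0.05 and at least 1.5-fold) and leaving out each array. Leaving out the array of highest median in each group was chosen after seeing the data.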

Additional observations from a re-analysis of the deposited data

How the results depend on the processing

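Of 336 recomputed differences of the 8 genes, 333 stayed within the spread between replicates and 0 called ones changed sign. Without the array of highest median in each group, *Gja4* gave 0.04 for ITD-1 against control and -0.03 for TGFβ1 against ITD-1, and *Gjc1* gave 0.20 for TGFβ1 against ITD-1. Counts of called genes stayed within 1.5 times in 182 of 209 cases. For TGFβ1 against control, leaving out those arrays gave 1 of the 8 genes, 2 ATP genes and 0 large-pore channels. The methods' criteria gave 3 partners, 1 ATP gene and 1 large-pore channel, and large-pore channels also numbered 1 with the brighter probe sets alone (mean at least the median) and by analysis of variance, and 1 to 2 when single arrays were left out. For ITD-1 against control, 1 of the 8 genes (*Gja5*) was called with the brighter probe sets alone, with trend and robust settings and by the methods' criteria. Partners there numbered 2 with the brighter probe sets alone, trend and robust settings or array weights, 0 with only the arrays of the 2 groups, the replicate block, analysis of variance or without the arrays of highest median, and 0 to 1 when single arrays were left out. With the replicate number as a block, 2 of the 8 genes were called for TGFβ1 and 0 for ITD-1, and of the named connexins, pannexins, partners, ATP genes and large-pore channels called against control only *Slc29a1* (TGFβ1) and *Cav1* (ITD-1) lost their calls. Calls of markers and TGFβ target genes with the block were not examined. The causes of these shifts were not tested.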
